A study of Mus musculus with 12 samples.

Results

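Fev, Etv1, Ski and Foxp2 are 4 transcriptional regulators that were selected on their levels in mouse γ-cells, the islet cells that make pancreatic polypeptide from the Ppy gene. They were looked up by name among the 31055 genes of the single-cell matrices and the 45808 genes of the bulk table, and all 4 passed the filters on low counts in both. Because the genes were chosen by comparisons of γ-cells with other islet cells, their values in monohormonal Ppy+ cells and in bulk γ-cells are given as a description, with no test. Comparisons that leave out the monohormonal Ppy+ class were tested. Those among the other monohormonal classes use levels that also entered the choice, so their p-values are not independent of it. The genes were chosen with earlier results of these data known, so p-values among bihormonal classes cannot be taken as independent either.

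For single-cell RNA-seq, islet cells came from Ppy-rtTA; R26-YFP mice of mixed background. In these mice, doxycycline acts through rtTA at the Ppy locus to label Ppy-expressing cells with YFP. The paper describes this line as also carrying TetO-Cre. There rtTA replaces the Ppy coding sequence, and the allele was kept heterozygous for work on γ-cells. The mice drank doxycycline at 1 mg/ml and were 2 months old when the YFP+ and YFP- cells of 2 experiments were sorted and loaded separately, which gave 4 libraries. For bulk RNA-seq, YFP+ γ-cells of Ppy-rtTA;TetO-Cre;R26-YFP mice (5 libraries) and YFP+ δ-cells of Sst-Cre;R26-YFP mice (3 libraries) were sorted at 2 months of age. The γ-cell mice also received doxycycline, while the δ-cell line needs none. The R26-YFP reporter is shared by all groups, and the Sst-Cre driver marks any cell that has ever used the Sst promoter.

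Fev and Etv1 belong to the ETS family, whose members share a DNA-binding domain that reads a GGAA core. Fev is best known for switching on the genes of serotonin synthesis and transport in serotonergic neurons, and it also marks endocrine progenitors of the pancreas. Etv1 is a PEA3-type ETS activator that acts downstream of receptor tyrosine kinase signalling. Ski is a corepressor that binds Smad proteins and limits TGF-β signalling, and Foxp2 is a forkhead repressor known for its role in the developing brain.

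In the GRCm38 annotation (GENCODE), Fev lies on the minus strand of chr1:74881509-74885419 and Etv1 on the plus strand of chr12:38779380-38870484. Ski lies on the minus strand of chr4:155154075-155222592 and Foxp2 on the plus strand of chr6:14901349-15441977. No other annotated gene overlaps Fev, Etv1 or Ski, and 1 predicted gene, Gm25470, lies within Foxp2 on the same strand. The promoters of Fev and Etv1 are printed here because both genes were low in monohormonal Ins2+ cells. Each stretch holds 250 bases before and 50 bases after a start site from RefSeq (GRCm38.p6), in the direction of transcription, with the core GGAA or its reverse complement TTCC in capitals. The first is chr1:74885359-74885658 on the minus strand, and the second is chr12:38779832-38780131 on the plus strand, at 1 of 2 listed Etv1 starts.
Fev: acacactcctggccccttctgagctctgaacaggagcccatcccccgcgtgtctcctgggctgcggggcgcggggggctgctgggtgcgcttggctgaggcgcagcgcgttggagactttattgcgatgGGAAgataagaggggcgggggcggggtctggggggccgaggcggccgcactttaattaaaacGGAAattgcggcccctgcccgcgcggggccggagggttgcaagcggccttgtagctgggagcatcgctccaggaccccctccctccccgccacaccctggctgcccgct
Etv1: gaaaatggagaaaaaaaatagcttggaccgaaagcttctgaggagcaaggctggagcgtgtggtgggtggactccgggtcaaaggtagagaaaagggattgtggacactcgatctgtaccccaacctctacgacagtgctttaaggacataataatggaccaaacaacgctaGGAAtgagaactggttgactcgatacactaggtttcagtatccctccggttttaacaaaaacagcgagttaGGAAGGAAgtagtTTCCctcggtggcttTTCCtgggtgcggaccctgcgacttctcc
The Fev stretch held 2 cores and the Etv1 stretch 5. The core occurred in 96.0% of the 32851 listed promoters, so that its presence does not set these genes apart. The longer form CGGAA (or TTCCG), which contains the core and was found in 29.9% of promoters, occurred in the Fev stretch 1 time and was not found in the Etv1 stretch. The forkhead core TGTTT (or AAACA), found in 50.5% of promoters, occurred 2 times in the Etv1 stretch and was not found in that of Fev. GC content was 69.0% for Fev and 48.7% for Etv1.

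After 128 doublets and 5 non-endocrine clusters had been removed from 5982 cells, cells were classed by thresholds on Ppy, Gcg, Ins2 and Sst. Monohormonal Ppy+, Gcg+ (α), Ins2+ (β) and Sst+ (δ) cells numbered 1447, 643, 529 and 249, and there were 750 Ppy+Gcg+, 354 Ppy+Sst+ and 123 Ppy+Ins2+ bihormonal cells. UMIs (unique molecular identifiers, 1 per captured RNA molecule) were summed per class and experiment into 14 sums of 375752 to 10343380 UMIs. Levels are CPM (counts scaled to the size of the library) after TMM scaling, which sets aside the large share of a few genes. Hormone transcripts took 22.7% of the UMIs in Sst+ cells of experiment 2 and 74.8% in Ins2+ cells of experiment 1. All Gcg+ and Sst+ cells and 528 of 529 Ins2+ cells came from YFP- libraries, whereas 1432 of 1447 Ppy+ cells came from YFP+ libraries, so that class and sorted fraction cannot be told apart in these comparisons. The 4 libraries shared 1 to 6 cell barcodes per pair.

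Among monohormonal cells, Fev and Etv1 were low in Ins2+ cells and high in the other 3 classes, Ski was at a similar level in all classes after TMM scaling, and Foxp2 was highest in Ppy+ cells and without a UMI in Sst+ cells. After TMM scaling, Ppy+ cells were above both Gcg+ and Sst+ cells in each experiment for Etv1 and Foxp2, but not for Fev or Ski. As a share of all UMIs, without that scaling, Foxp2 alone was highest in Ppy+ cells in both experiments, and Etv1, Fev and Ski averaged below their Gcg+ and Sst+ levels there.

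Fev in Ppy+ cells was 22.0 CPM in experiment 1 and 20.4 CPM in experiment 2, from 108 and 92 UMIs. Gcg+ cells held 21.3 and 24.8 CPM, and Sst+ cells 18.6 and 32.1 CPM. These 3 classes overlapped, whereas Ins2+ cells lay below them at 4.56 and 3.62 CPM. In order, the class means ran from Sst+ (25.4 ± 9.50 CPM, SD, n = 2 experiments) through Gcg+ (23.0 ± 2.46) and Ppy+ (21.2 ± 1.12) to Ins2+ (4.09 ± 0.664), and only the step to Ins2+ exceeded the spread between experiments. The fitted log2 fold change of Ppy+ cells was -0.12 (SE 0.18) against Gcg+, -0.22 (SE 0.28) against Sst+ and 2.23 (SE 0.27) against Ins2+ cells. Against Sst+ cells its sign differed between experiments, at 0.24 in experiment 1 and -0.65 in experiment 2.

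Etv1 was the most abundant of the 4 in UMIs. Ppy+ cells held 520 and 580 CPM in experiments 1 and 2, and Gcg+ cells 421 and 425 CPM. Sst+ cells held 423 and 289 CPM, below Ppy+ cells in both experiments, though without TMM scaling Sst+ cells (604 CPM) exceeded Ppy+ cells (440 CPM) in experiment 1. Ins2+ cells held 23.9 and 15.7 CPM, far below the rest. The log2 fold change of Ppy+ cells was 0.38 (SE 0.13) against Gcg+, 0.62 (SE 0.14) against Sst+ and 4.63 (SE 0.18) against Ins2+ cells. Etv1 was also 1 of the variable genes on which the cells were clustered, while Fev, Ski and Foxp2 were not.

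Ski in Ppy+ cells was 23.4 and 21.5 CPM in the 2 experiments. Gcg+ cells held 18.6 and 18.8 CPM, Ins2+ cells 19.9 and 24.1 CPM and Sst+ cells 22.6 and 24.1 CPM. Ppy+ cells lay above Gcg+ cells in both experiments and within the range of the other classes. The log2 fold change of Ppy+ cells was 0.26 (SE 0.18) against Gcg+, 0.09 (SE 0.19) against Ins2+ and -0.05 (SE 0.27) against Sst+ cells. Without TMM scaling the classes of Ski were less alike, with 10.2 and 15.4 CPM in Ins2+, 19.8 and 18.2 CPM in Ppy+ and 32.3 and 38.8 CPM in Sst+ cells.

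Foxp2 in Ppy+ cells was 19.1 and 16.8 CPM, from 94 and 76 UMIs. Gcg+ cells held 10.7 and 10.5 CPM and Ins2+ cells 5.13 and 1.21 CPM, the last from 1 UMI. In Sst+ cells no UMI was found in either experiment. Ppy+, Gcg+ and Ins2+ cells followed in this order without overlap, while Ins2+ cells of experiment 2 lay under the floor of 3 UMIs in Sst+ cells of that experiment (4.81 CPM), so that these 2 classes could not be ordered there. The log2 fold change of Ppy+ cells was 0.77 (SE 0.23) against Gcg+ and 2.07 (SE 0.29) against Ins2+ cells. Against Sst+ cells, with a floor of 3 UMIs over the class, Ppy+ cells held at least 8.26-fold more Foxp2, and at least 4.64-fold more without TMM scaling.

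**Figure D1:**
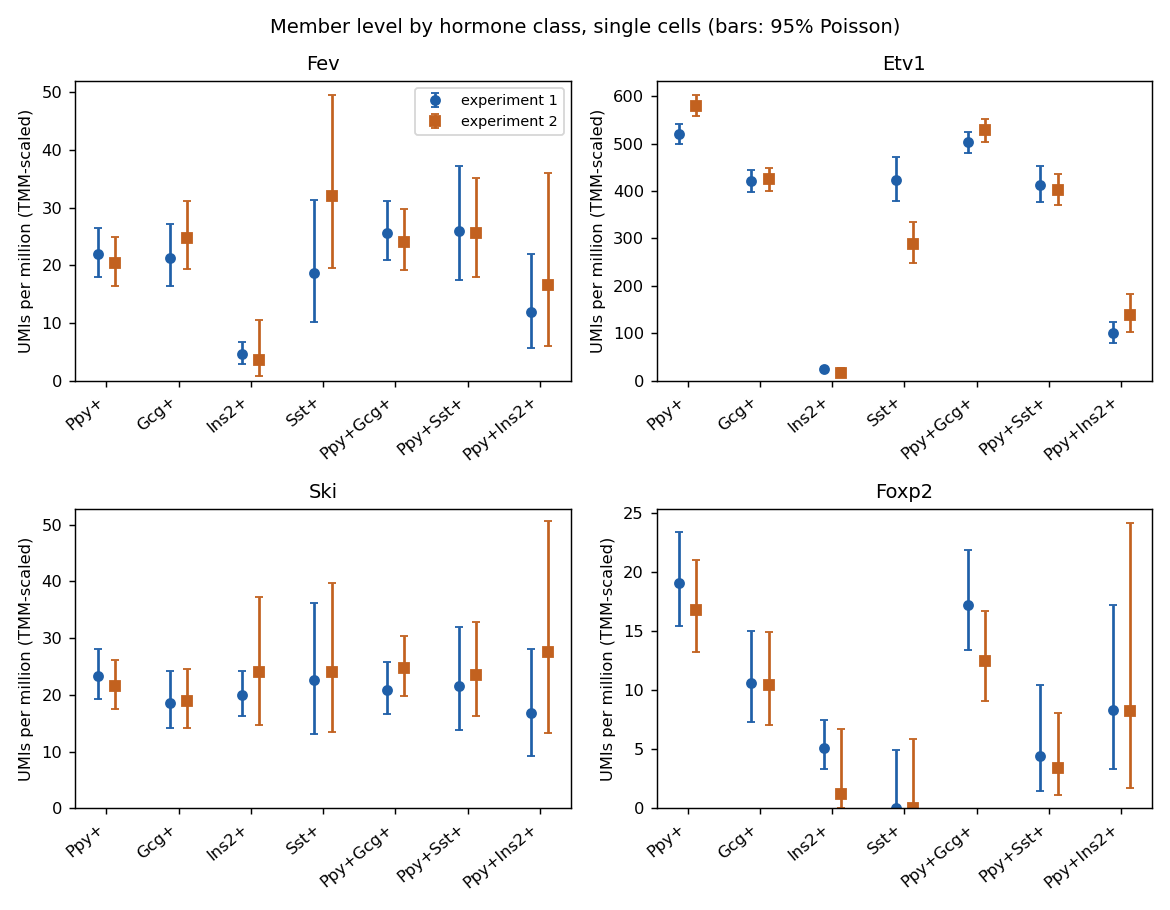
Level of each regulator (CPM after TMM scaling, linear axes from 0) in the 7 hormone classes; circles and squares are the 2 experiments and bars are exact 95% Poisson intervals, which cover counting error only. Fev and Etv1 fall in Ins2+ cells, Ski is flat on this scale (but not without TMM scaling), and Foxp2 runs from 19.1 CPM in Ppy+ cells of experiment 1 to 0 in Sst+ cells.

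Differences among the 3 monohormonal classes other than Ppy+ were tested with edgeR's quasi-likelihood test on the 14 sums, with the experiment as a replicate block and Benjamini-Hochberg adjustment over 10521 genes. Calls needed an adjusted p no higher than 0.05 and an absolute log2 fold change above 0.721. Levels in these 3 classes also entered the choice of the 4 regulators, so these p-values are not independent of it. Etv1 was also among the variable genes behind the clusters, which help to define the classes. Its p-values are thus not independent of the classes either. Between Gcg+ and Ins2+ cells, where 22.4% of all genes were called, 3 of the 4 regulators were called, all higher in Gcg+ cells. Etv1 differed by a log2 fold change of 4.25 (SE 0.18, adjusted p = 3.33e-21) and Fev by 2.35 (SE 0.28, adjusted p = 6.86e-09). Foxp2 differed by 1.31 (SE 0.34, adjusted p = 0.00247), at 1.06 in experiment 1 and 3.12 in experiment 2, the latter against 1 UMI in Ins2+ cells. Ski was not called at -0.17 (SE 0.21, adjusted p = 0.570).

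Between Ins2+ and Sst+ cells, where 15.5% of genes were called, Etv1 was lower in Ins2+ cells by a log2 fold change of -4.01 (SE 0.19, adjusted p = 2.33e-19) and Fev by -2.46 (SE 0.38, adjusted p = 3.82e-06). Foxp2 was called higher in Ins2+ than in Sst+ cells (28 UMIs against 0, adjusted p = 0.0162), a call that DESeq2 did not make (adjusted p = 0.0774). Of these 28 UMIs, 27 came from experiment 1, and as a share of all UMIs the Ins2+ level (2.40 CPM) lay under the Sst+ floor of 3 UMIs (3.29 CPM), so that no fold is given. Ski was not called (-0.14, SE 0.29, adjusted p = 0.811). Between Gcg+ and Sst+ cells, where 12% of genes were called, only Foxp2 was called among the 4, at least 4.84-fold higher in Gcg+ cells (adjusted p = 1.74e-04) and at least 3.58-fold without TMM scaling. There Fev differed by -0.11 (SE 0.28, adjusted p = 0.881), Etv1 by 0.24 (SE 0.15, adjusted p = 0.338) and Ski by -0.32 (SE 0.29, adjusted p = 0.580).

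Among bihormonal cells, Etv1 was lowest in those with Ins2. Foxp2 was lowest in those with Sst, on few UMIs and without a call against those with Ins2. A cluster high for Ins2 alone held 75 and 31 Ppy+Ins2+ cells in experiments 1 and 2. That high for Sst alone held 130 and 134 Ppy+Sst+ cells. The paper left out bihormonal cells of monohormonal clusters, since their transcriptomes resembled those of monohormonal cells. The part of cluster membership in the differences below was not tested. The p-values below cannot be taken as independent of the choice of the 4 regulators. Those of Etv1 are also not independent of the clustering, in which it was a variable gene. Etv1 was 503 and 528 CPM in Ppy+Gcg+ cells, 413 and 403 CPM in Ppy+Sst+ cells and 101 and 138 CPM in Ppy+Ins2+ cells. The 3 classes did not overlap, and Ppy+Ins2+ cells stood between Ins2+ and Ppy+ cells. Between Ppy+Gcg+ and Ppy+Ins2+ cells, where 7.47% of genes were called, Etv1 differed by a log2 fold change of 2.18 (SE 0.18, adjusted p = 2.77e-12). Between Ppy+Sst+ and Ppy+Ins2+ cells, where 4.3% were called, it differed by 1.84 (SE 0.18, adjusted p = 8.30e-10). It was the only 1 of the 4 regulators called in either comparison.

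Foxp2 was 17.3 and 12.5 CPM in Ppy+Gcg+ cells, 4.48 and 3.46 CPM in Ppy+Sst+ cells and 8.38 and 8.28 CPM in Ppy+Ins2+ cells, the last pair from 7 and 3 UMIs. Ppy+Gcg+ cells were above both other classes in each experiment. Ppy+Sst+ and Ppy+Ins2+ cells held 10 Foxp2 UMIs each over both experiments. Between these classes Foxp2 was not called (log2 fold change -1.01, SE 0.64, edgeR adjusted p = 0.464). Between Ppy+Gcg+ and Ppy+Sst+ cells, where 7.06% of genes were called, Foxp2 was the only 1 of the 4 called, with a log2 fold change of 1.90 (SE 0.41, adjusted p = 9.94e-04). Relative to Ppy+ cells, the log2 fold change of Foxp2 was -0.27 (SE 0.20) in Ppy+Gcg+, -1.16 (SE 0.43) in Ppy+Ins2+ and -2.17 (SE 0.39) in Ppy+Sst+ cells.

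Fev was 25.6 and 24.1 CPM in Ppy+Gcg+ cells, 26.0 and 25.6 CPM in Ppy+Sst+ cells and 12.0 and 16.6 CPM in Ppy+Ins2+ cells. The last class lay lowest in both experiments, on 10 and 6 UMIs, and neither of its comparisons with the other bihormonal classes passed the test (adjusted p = 0.118 and 0.184). Ski was 20.8 and 24.7 CPM in Ppy+Gcg+, 21.5 and 23.5 CPM in Ppy+Sst+ and 16.8 and 27.6 CPM in Ppy+Ins2+ cells, and the classes overlapped.

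Within a bihormonal class, YFP+ and YFP- cells of the same experiment could be set side by side, here as CPM of the UMIs outside the 7 hormone genes. Which libraries share an experiment was taken from the numbers in the labels. Etv1 in Ppy+Gcg+ cells was 918 and 1017 in the YFP+ libraries and 723 and 701 in the YFP- libraries. In Ppy+Sst+ cells it was 931 and 883 in YFP+ and 688 and 604 in YFP- libraries. In Ppy+Ins2+ cells it was 217 and 294 in YFP+ and 90.8 and 349 in YFP- libraries, the last pair from 5 and 8 UMIs in 11 and 3 cells. Etv1 was thus higher in the YFP+ library in 5 of 6 pairs, and lower in Ppy+Ins2+ cells of experiment 2. Fev, Ski and Foxp2 were each higher in the YFP+ library in 4 of 6 pairs. These pairs were not counted for other genes. On the same scale, Ppy+ cells of the YFP+ libraries held 926 and 1059 and Gcg+ cells of the YFP- libraries 695 and 736. The part of the sorted fraction in the Etv1 difference between Ppy+ and Gcg+ cells was not tested.

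Per cell, Etv1 was seen in most Ppy+ cells and the other 3 in few. At least 1 UMI of Etv1 was found in 90.2% of Ppy+ cells (95% exact binomial interval 88.5 to 91.7%), of Ski in 13.0% (11.3 to 14.8%), of Fev in 11.7% (10.1 to 13.5%) and of Foxp2 in 10.3% (8.78 to 12.0%), at a median of 6791 UMIs per cell. In non-endocrine cells, at a median of 3499 UMIs, these shares were 12.8%, 22.0%, 1.90% and 2.25%. Ski was seen less often in Ppy+ cells than in the shallower non-endocrine cells, and its share was highest, at 40.1%, in the cluster led by Dcn and Col3a1. When each cell was thinned to 1000 UMIs, hormones included, which left out no cell, Etv1 was found in 35.2% of Ppy+, 38.1% of Gcg+, 37.3% of Sst+ and 0.945% of Ins2+ cells. Thinned shares of Fev were 2.14%, 2.64%, 2.41% and 0.378% in the same order, against 0.281% in non-endocrine cells. The UMIs outside the hormone genes were not matched by this thinning, since hormones took 70.7 to 74.8% of UMIs in Ins2+, 52.4 to 53.4% in Ppy+, 33.9 to 34.1% in Gcg+ and 22.7 to 30.7% in Sst+ cells. Foxp2 was found in 0 of 249 Sst+ cells before thinning, at a median of 3684 UMIs per cell, where a floor of 3 cells allows a share of cells with a UMI (not of expressing cells) of up to 1.20%. At that depth, 2.54% of the 354 Ppy+Sst+ cells (median 3878 UMIs) held a Foxp2 UMI, close to the 2.25% of non-endocrine cells.

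**Figure D2:**
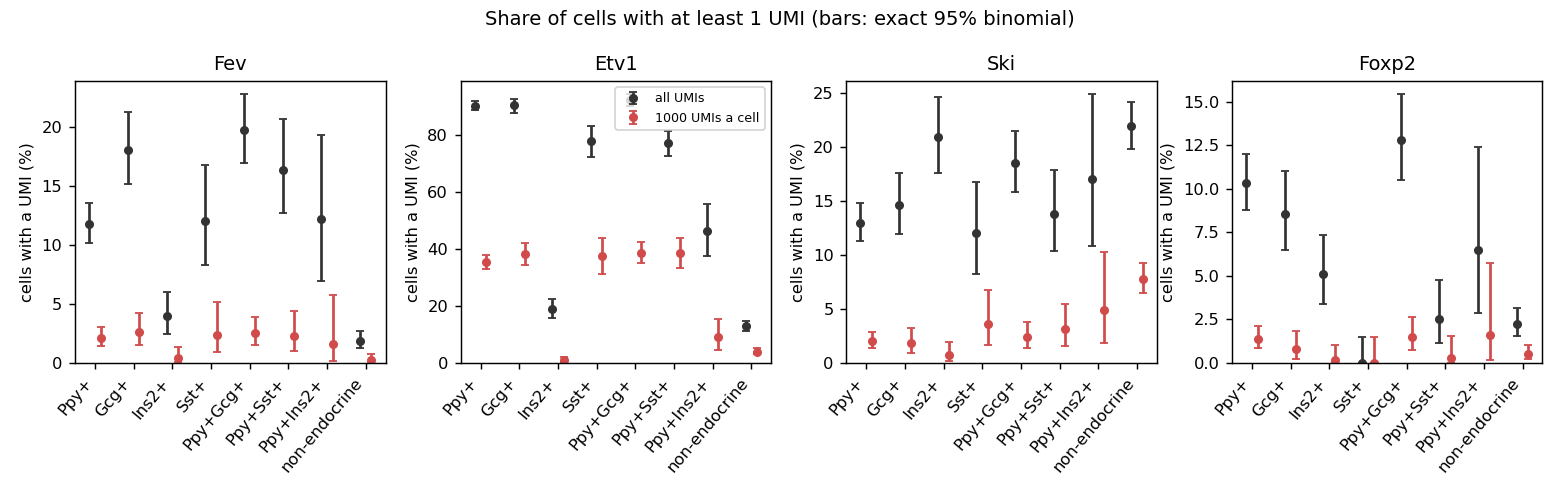
Share of cells with at least 1 UMI (%) of each regulator per class and in the non-endocrine clusters, both experiments together; black points use all UMIs, red points 1000 UMIs per cell, and bars are exact 95% binomial intervals. At 1000 UMIs per cell, hormones included, Etv1 was found in 35.2% of Ppy+ and 0.945% of Ins2+ cells, and Foxp2 in 1.38% of Ppy+ and 0 Sst+ cells.

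All 4 regulators were found together in 7 of 1447 Ppy+ cells, 3 in 47, 2 in 356, 1 in 931 and none in 106. In Gcg+ cells the share without any was similar, at 6.69% against 7.33% in Ppy+ cells, and in Ins2+ cells it was 60.1%. Monohormonal Ppy+ cells lay mainly in a Ppy-high cluster (567 and 672 cells) and in a cluster high for both Ppy and Gcg (85 and 51 cells). In CPM of all UMIs, Fev was 15.6 and 16.5 in the first and 29.0 and 22.1 in the second cluster. Etv1 was 419 and 473 in the first and 555 and 605 in the second. Ski was 19.4 and 17.4 in the first and 22.0 and 23.8 in the second, and Foxp2 was 16.2 and 13.6 in the first and 15.1 and 15.3 in the second. On this scale Fev, Etv1 and Ski were higher in the second cluster in each experiment, where hormones took 43.7 and 44.8% of UMIs against 54.2 and 54.7% in the first. In CPM of the UMIs outside the hormone genes, Fev was 34.1 and 36.5 in the first and 51.5 and 40.04 in the second, and Etv1 was 915 and 1044 against 987 and 1096. Ski was 42.4 and 38.5 against 39.1 and 43.1 on that scale, without a common direction. Foxp2 was 35.5 and 30.1 against 26.8 and 27.7. The values of the second cluster rested on few UMIs, with 25 and 13 for Fev, 19 and 14 for Ski and 13 and 9 for Foxp2. Differences between the clusters were not tested.

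Over the 14 sums, the log2 levels of Fev and Etv1 had a Pearson correlation of 0.94, whereas Ski and Foxp2 had correlations of -0.27 to 0.29 with the others and each other. The sums share libraries and classes, so these values are descriptions. Both Fev and Etv1 were lowest in the classes with Ins2. Among the other monohormonal classes their order differed. Mean Fev was 25.4 CPM in Sst+ and 21.2 CPM in Ppy+ cells, while mean Etv1 was 356 and 550 CPM. The genes most like Fev were Gfra1, a receptor subunit for GDNF (0.97), Sorcs2, a sorting receptor (0.96), and Krt1, a keratin (0.96). For Etv1 they were Alcam, a cell adhesion molecule (0.98), Smarca1, a chromatin remodeller (0.98), and again Gfra1 (0.96). For Foxp2 they were Arhgap6 (0.95), Fam222a (0.94) and Mrpl44, a mitochondrial ribosome protein (0.93). For Ski the values were lower, at 0.83 for Stap2, 0.83 for Gpc1 and 0.81 for Lsm14a.

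In bulk RNA-seq the mean of each of the 4 regulators was higher in γ- than in δ-cells, a comparison that was used to choose them. The libraries held 14633838 to 31784878 counts in γ-cells and 7641916 to 11773598 in δ-cells. γ-cell libraries were read as pairs and δ-cell libraries as single reads, on different instruments, so that cell type, mouse line and read layout cannot be told apart. In these sorted populations, fewer cells of a type and less RNA per cell cannot be told apart either. Values are CPM after TMM scaling, and 35% of 17926 genes were called between the groups, at an adjusted p no higher than 0.05 and a fold change of 2 or more in either direction (1 on the log2 scale).

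Fev was 80.7, 88.2, 78.0, 63.2 and 77.9 CPM in γ-cells and 2.60, 4.55 and 3.34 CPM in δ-cells. The log2 fold change of 4.45 (SE 0.20) was the largest of the 4, from means of 77.6 ± 9.10 CPM (SD, n = 5) and 3.50 ± 0.986 CPM (SD, n = 3). Ski was 159, 161, 162, 147 and 144 CPM in γ-cells and 19.3, 18.8 and 21.3 CPM in δ-cells, with a log2 fold change of 2.96 (SE 0.11). Its coefficient of variation was the lowest of the 4 in both groups, at 5.34% and 6.79%.

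Foxp2 was 28.7, 25.6, 29.7, 25.9 and 20.3 CPM in γ-cells and 4.52, 4.31 and 2.04 CPM in δ-cells, with a log2 fold change of 2.85 (SE 0.28). Etv1 was 438, 446, 375, 373 and 400 CPM in γ-cells and 112, 158 and 181 CPM in δ-cells, with the smallest log2 fold change, 1.43 (SE 0.16). Per kilobase of exon, Fev was the most abundant of the 4 in γ-cells (48.0 ± 5.63 RPKM), followed by Etv1 (30.6 ± 2.57), Ski (27.8 ± 1.49) and Foxp2 (1.59 ± 0.223). Etv1 and Ski did not differ beyond their spread. In δ-cells Etv1 came first at 11.3 ± 2.65 RPKM. In CPM, which takes no account of length, the γ-cell order was Etv1 (mean 406), Ski (155), Fev (77.6) and Foxp2 (26.1). The RPKM order thus depends on the union of annotated exons, 13296 bases for Etv1 and 1617 for Fev.

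**Figure D3:**
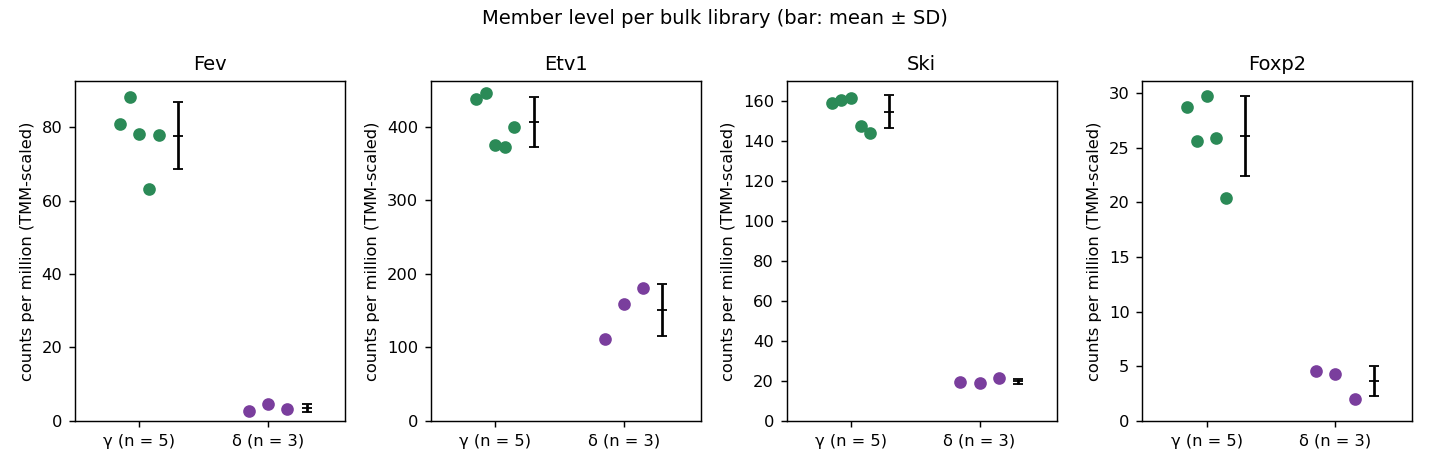
CPM after TMM scaling (linear axes from 0) of each regulator in the 5 γ-cell and 3 δ-cell bulk libraries; points are libraries and bars the mean ± SD. Fev lay between 63.2 and 88.2 CPM in γ-cells and at most at 4.55 CPM in δ-cells.

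Ppy and Sst followed the sort, with Ppy at 108279 ± 13575 CPM in γ-cells and 11813 ± 3259 CPM in δ-cells, and Sst at 9650 ± 1856 and 76595 ± 14363 CPM. Gcg was 69979 ± 18762 CPM in γ-cells and 3055 ± 2390 CPM in δ-cells, so that the γ-cell libraries also held much α-cell hormone. Ins2 was 11582 ± 4418 CPM in γ-cells and 1321 ± 733 CPM in δ-cells. The summed level of 6 β-cell markers was 6246 to 20293 and 942 to 2441 CPM in that order, without overlap. The summed level of 15 acinar markers was 2696 to 16192 CPM in γ-cells and 24938 to 104828 CPM in δ-cells. That of 13 stromal markers was 766 to 3684 CPM in γ-cells and 343 to 1041 CPM in δ-cells, and none and up to 5 of them, respectively, were at 0. The sum of 14 ductal markers was 1714 to 2227 CPM in γ-cells and 2679 to 4062 CPM in δ-cells, and that of 7 glial markers 7.93 to 21.3 and 28.3 to 88.9 CPM. Acinar, ductal and glial sums thus did not overlap and were lower in γ-cells. The ductal list holds Spp1, a leading gene of the main Ppy-high cluster of single cells, so that its sum need not be ductal RNA alone. The part of these sums and that of α- and β-cell RNA in the values of the 4 regulators was not tested.

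The contrast with δ-cells thus differed between the assays for Fev and Ski. The log2 fold change of Fev was -0.22 (SE 0.28) for single Ppy+ over Sst+ cells and 4.45 (SE 0.20) for bulk γ- over δ-cells. That of Ski was -0.05 (SE 0.27) and 2.96 (SE 0.11). For Etv1 both were positive, at 0.62 and 1.43, and for Foxp2 both assays gave higher levels in γ-cells, at least 8.26-fold in single cells (4.64-fold without TMM scaling) and 7.23-fold in bulk. The assays differ in the mouse line of the δ-cells, capture of transcript ends and cell selection. Bulk γ-cells were sorted on YFP alone, whereas the Ppy+ class left out bihormonal cells. The single-cell YFP+ libraries held 338 and 327 Ppy+Gcg+ cells in experiments 1 and 2. The difference between the assays was not tested.

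**Figure D4:**
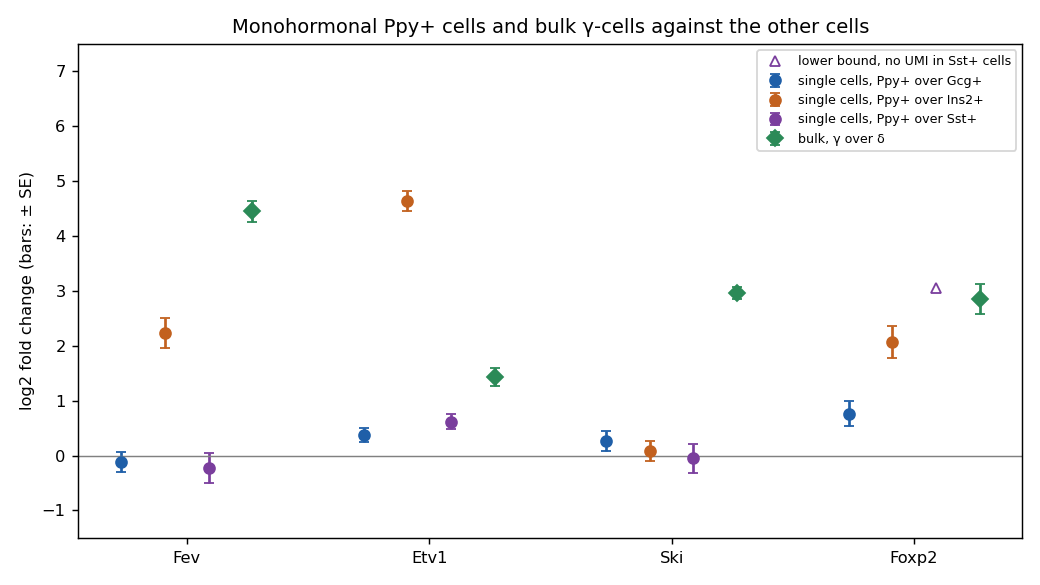
Fitted log2 fold change (± SE) of each regulator for single Ppy+ cells over Gcg+, Ins2+ and Sst+ cells (circles) and for bulk γ- over δ-cells (diamonds); the open triangle is a lower bound, since Sst+ cells held no Foxp2 UMI. Fev and Ski lie near 0 against Sst+ cells and at 4.45 and 2.96 in bulk.

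Relatives and partners of the 4 regulators were tested in the same comparisons, in which the calls made up 12.9% of genes for Ppy+ against Gcg+ cells, 26.5% against Ins2+ cells and 12% against Sst+ cells, and 35% of genes for bulk γ- against δ-cells. Of 24 other ETS genes, 13 could be tested in single cells, and 0, 1 and 0 of them were higher and 1, 3 and 1 lower in Ppy+ than in Gcg+, Ins2+ and Sst+ cells. Ehf, an epithelial ETS factor, was the gene lower than in Sst+ cells, at 4.83 against 91.8 CPM (log2 fold change -4.20, SE 0.27, edgeR adjusted p = 9.89e-16). In bulk it was also lower in γ-cells, at 53.0 against 466 CPM (-3.14, SE 0.14, adjusted p = 5.64e-08). Etv5, the PEA3-type relative of Etv1, was lower in Ppy+ than in Ins2+ cells (2.80 against 13.5 CPM, log2 fold change -2.22, adjusted p = 8.29e-06), opposite to Etv1. Elk3 was lower there too (-0.94, adjusted p = 0.0141), at -1.26 in experiment 1 but -0.03 in experiment 2. In bulk, 3 of 19 ETS genes were higher in γ-cells and 2 lower, with Ets2 at 79.0 against 14.1 CPM (2.49, adjusted p = 6.90e-07) and Elf3 at 26.9 against 77.1 CPM (-1.52, adjusted p = 9.10e-07). Their median log2 fold change was 0.30, against -0.05 over all genes in bulk. In single Ppy+ and Sst+ cells, Ets2 was 11.3 and 10.9 CPM (0.06) and Elf3 5.54 and 2.13 CPM (1.31), neither of them called.

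Of 10 other forkhead genes that were listed, all of the Foxp, Foxa and Foxo groups, 7 were tested in single cells. Foxa3, a factor of endoderm organs, was higher in Ppy+ cells (27.9 CPM) than in Gcg+ cells (13.0 CPM, log2 fold change 1.10, edgeR adjusted p = 6.90e-05) and Ins2+ cells (10.8 CPM, 1.28, adjusted p = 8.05e-06). It was the only listed forkhead gene called in these 2 comparisons, and none of those tested was called against Sst+ cells. In bulk, 4 of 10 were higher in γ-cells and 1 lower, with a median log2 fold change of 1.29. Foxp4, a relative of Foxp2, was 87.9 CPM in γ-cells and 11.5 CPM in δ-cells (2.93, adjusted p = 2.60e-07), Foxa2, a pioneer factor of endoderm, was 132 and 8.50 CPM (3.94, adjusted p = 8.30e-08), and Foxo6 was 22.6 and 0.973 CPM (4.52, adjusted p = 1.01e-07). In single Ppy+ and Sst+ cells, Foxp4 was 22.4 and 22.9 CPM (-0.05) and Foxa2 49.2 and 47.5 CPM (0.04), while Foxo6 was not tested there.

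Of 12 partners and relatives of Ski, 9 were tested in single cells. None was higher in Ppy+ cells in any of the 3 comparisons, none was lower than in Gcg+ cells, and 2 were lower than in Ins2+ and Sst+ cells. These were Dach1 and Dach2, which share the Ski homology domain. Dach2 held no UMI in Ppy+ cells and was at least 36.6-fold lower there than in Sst+ cells (edgeR adjusted p = 4.68e-06). Dach1 was 12.1 CPM in Ppy+ and 33.6 CPM in Sst+ cells (-1.46, adjusted p = 1.51e-04). In bulk, Dach2 was lower in γ-cells (2.24 against 30.2 CPM, -3.76, adjusted p = 9.17e-06), while Smad4, the common Smad, was higher (168 against 25.1 CPM, 2.75, adjusted p = 2.43e-08). In all, 3 of 10 were higher and 1 lower in bulk, with a median log2 fold change of 0.29. In single cells, Smad4 was 20.4 CPM in Ppy+ and 20.7 CPM in Sst+ cells (-0.02) and was not called.

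Fev is known to switch on genes of the serotonin pathway in neurons. A list of 17 genes held those of serotonin synthesis, transport, breakdown and sensing, and some transcription factors. Of these, 5 were tested in single cells, which did not include the tryptophan hydroxylases or the serotonin reuptake transporter of the list. In Ppy+ cells 3 were lower than in Gcg+ cells and 4 lower than in Ins2+ cells, with none higher. Against Sst+ cells, 1 of the 5 was higher and 1 lower. Their median log2 fold change was -1.05 against Gcg+, -2.77 against Ins2+ and 1.28 against Sst+ cells, where the medians over all genes were -0.01, 0.0022 and 0.02, and the 3 comparisons share the Ppy+ cells. The median of 1.28 was the value of a gene that was not called, from 50 against 3 UMIs. Maob, which degrades monoamines, was 4.66 CPM in Ppy+, 46.5 CPM in Gcg+ (log2 fold change -3.30, edgeR adjusted p = 6.84e-15) and 90.4 CPM in Ins2+ cells (-4.28, adjusted p = 7.04e-20). Ddc, the decarboxylase that makes serotonin and dopamine, was 42.5 CPM in Ppy+, 88.2 CPM in Gcg+, 138 CPM in Ins2+ and 4.40 CPM in Sst+ cells. It was higher in Ppy+ than in Sst+ cells (3.28, adjusted p = 1.71e-08) and in bulk γ- than δ-cells (93.0 against 10.3 CPM, 3.17, adjusted p = 1.38e-05). Gch1, which makes the cofactor of the hydroxylases, was lower in Ppy+ than in Sst+ cells (-1.83, adjusted p = 1.19e-05) but higher in bulk γ- than δ-cells (143 against 5.51 CPM, 4.70, adjusted p = 1.92e-08). In bulk, 3 of 11 were higher and 2 lower, among them the vesicular transporter Slc18a2 (2.60 against 14.3 CPM, -2.46, adjusted p = 1.39e-05). The tryptophan hydroxylases of the list had means of 0 and 1.16 CPM in bulk γ-cells and 0.799 and 1.47 CPM in δ-cells. The serotonin reuptake transporter had means of 0.0823 CPM in γ-cells and 1.55 CPM in δ-cells.

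**Figure D5:**
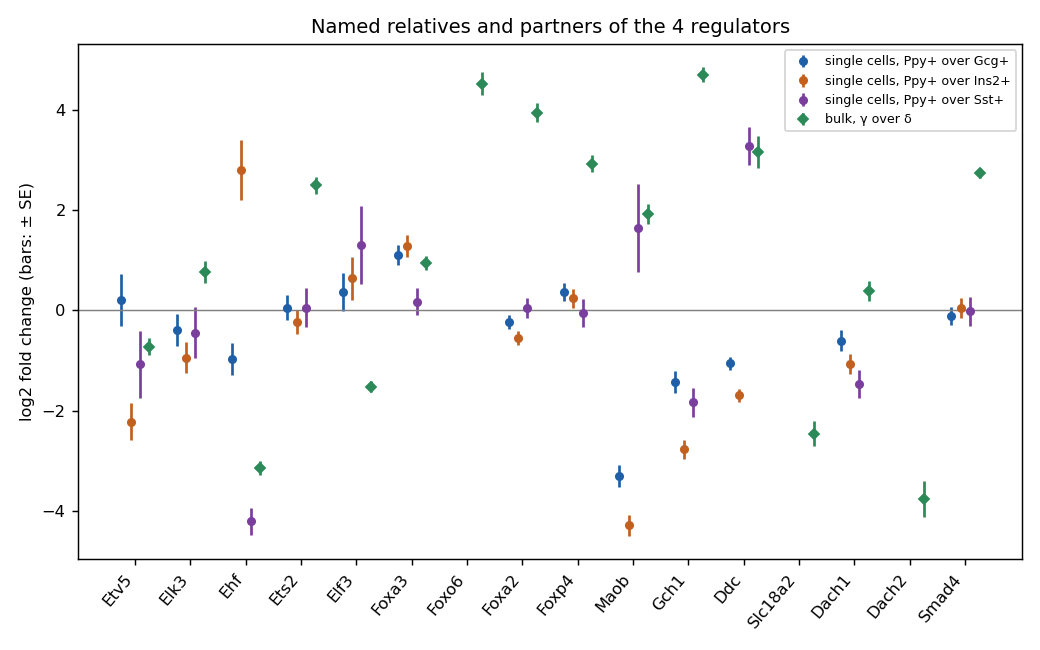
Fitted log2 fold change (± SE) of the named relatives and partners for single Ppy+ cells over the 3 other monohormonal classes (circles) and for bulk γ- over δ-cells (diamonds); genes without a UMI in a class have no circle. Ehf is below 0 and Ddc above 0 against δ-cells in both assays, whereas Gch1 lies at -1.83 in single cells and 4.70 in bulk.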

How the data were processed

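The members and gene lists were chosen with earlier results of these data known. UMIs were counted by the authors in Cell Ranger (mm10) and deposited as raw counts, for cells with at least 1000 UMIs. For bulk libraries the authors aligned reads with STAR 2.7.2b to GRCm38.p6, counted them with HTSeq 0.9.1 and deposited raw counts per gene. 6 columns of that table belong to no sample in the labels and were not used.

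Doublets were marked by Scrublet and a nearest-neighbour caller, and cells were integrated and clustered with Seurat 5.3.0. A cell was monohormonal when only 1 hormone was above its threshold, a density minimum, and its cluster was high for that hormone. Bihormonal cells had Ppy and 1 other hormone above threshold in a cluster high for either. Sums per class and experiment, and bulk counts, were fitted with edgeR 4.0.16 (TMM, quasi-likelihood test) in R 4.3.3, with filterByExpr for single cells and a mean of at least 5 counts per library in bulk. The single-cell fit has the experiment as a block, and its spread is estimated from all 14 sums. With labels that name no animals for bulk libraries, bulk p-values measure the spread between libraries. Single-cell p-values rest on the spread of the 14 sums that is left once class and experiment are fitted. This spread also borrows from other genes, with 31.8 prior degrees of freedom. It is thus not the spread of a single class between the 2 experiments. Sums of several classes come from the same library, so the 14 sums are not independent. No 2 bulk libraries of a group agreed within sampling noise, with a chi-square of at least 26.1 per degree of freedom. The scripts were tested on simulated data.

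Named were the 4 members, the 4 hormones, up to 3 called genes per list and comparison with the largest absolute log2 fold change (only genes reaching 10 CPM in either group), and the 3 genes most correlated with each member (log2 CPM, prior count 2), leaving out hormones, transgenes and predicted genes. Other genes are named only as cluster leaders. A gene that this rule names is not reported here but remains in the counts. RPKM values use the union of annotated exons. Intervals and floors (3 counts) cover counting error only. Alternatives were other classes, doublets kept, cells thinned to 1000 UMIs, other scalings and filters, DESeq2 1.42.0, blocks and left-out libraries.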

Additional observations from a re-analysis of the deposited data

How the results depend on the processing

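Of the alternatives tried, no value of the 4 regulators that exceeded the fold threshold changed direction. Levels as a share of all UMIs without TMM scaling, an alternative chosen after seeing the data, gave log2 fold changes of Ppy+ over Gcg+ cells of -0.52 (Fev), -0.024 (Etv1), -0.14 (Ski) and 0.36 (Foxp2), over Ins2+ cells of 2.95, 5.40, 0.60 and 3.42 in that order, and over Sst+ cells of -1.05 (Fev), -0.19 (Etv1) and -0.90 (Ski), with a bound of 4.64-fold for Foxp2, so that small differences of Etv1 and Ski changed sign with the scaling. Thinning cells to 1000 UMIs changed most: members called fell to 1 between Gcg+ and Ins2+ cells, 0 between Gcg+ and Sst+, 1 between Ins2+ and Sst+ and 0 between Ppy+Gcg+ and Ppy+Sst+ cells, family genes called fell to 2 (from 5) between Ppy+ and Gcg+ and to 3 (from 11) between Ppy+ and Ins2+ cells, the bound of Foxp2 over Sst+ cells fell to 2.33-fold, and the log2 fold change of Ski in Ppy+ cells rose to 0.45 against Gcg+ and 0.84 against Ins2+ cells. Thinning leaves fewer UMIs by construction, with 20 of 170 Foxp2 UMIs left in Ppy+ cells. Here and below, counts of called genes under alternatives stand without the share over all genes. A change in such a count is thus not a result about these genes. With classes by hormone thresholds alone, the log2 fold change over Gcg+ cells was 0.39 for Ski and 0.64 for Foxp2. Upper-quartile factors lowered the bulk log2 fold change of Ski to 2.67 and moved the median of all genes to -0.35 from -0.05, and the cause was not tested.

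Leaving out each experiment gave log2 fold changes of Ppy+ over Ins2+ cells from 2.24 to 2.47 for Fev, 4.42 to 5.20 for Etv1 and 1.87 to 3.73 for Foxp2, the last resting on 1 UMI in Ins2+ cells of experiment 2. Over Sst+ cells the range was -0.63 to 0.24 for Fev, 0.30 (experiment 1) to 1.03 (experiment 2) for Etv1 and -0.14 to 0.05 for Ski, and over Ins2+ cells -0.17 to 0.21 for Ski. Over Gcg+ cells it was -0.28 to 0.04 for Fev. Leaving out each bulk library gave 4.31 to 4.70 for Fev and 16 to 22 called family genes, against 19. At a log2 threshold of 0.5 in bulk, 27 were called.

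Bulk numbers in the labels do not pair the libraries: deviations of same-numbered libraries had correlations of -0.10, 0.07 and -0.27. A fit with the number as a replicate block gave log2 fold changes of 4.56 for Fev, 3.02 for Ski and 3.01 for Foxp2, with 21 called family genes. In single cells, the fit with no replicate block called the same number of regulators in all 6 tested pairs.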
